A study of Mus musculus with 5 samples.

Results

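The genes described here encode the proteins of the cytosolic ribosome, and the question was where the corepressor KAP1 and the Polycomb protein Ring1b were mapped on them in mouse embryonic stem cells. Members were chosen by symbol: Rpl or Rps, an optional p, digits, and at most a trailing a, x, y or l, together with Rplp0, Rplp1, Rplp2 and Rpsa. The 6 deposited promoter and gene tables held 57 such symbols among 14952 distinct symbols. The reference annotation held 81 protein-coding genes that fit the rule, 50 of the large and 31 of the small subunit, among 21031 protein-coding genes, and these 81 are the denominator below. Of the 57 symbols, 48 named a promoter row and 50 named a whole-gene row.

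The data were chromatin immunoprecipitation with sequencing (ChIP-seq) from 5 libraries, 1 per group, so no value has a replicate error and no difference between conditions was tested. KAP1 was precipitated with 5 µg of antibody from KAP1 fl/fl cells given vehicle (ethanol) or 4-hydroxytamoxifen, the drug that triggers deletion of the floxed allele. For Ring1b, 3 µg of antibody was used on Ring1b fl/fl cells under either treatment and on tamoxifen-treated KAP1 fl/fl cells. All cells were exposed for 24 h, cultured for a further 48 h and grown on irradiated mouse embryonic fibroblasts, and the Ring1b fl/fl cells kept the drug during the second period whereas the KAP1 fl/fl cells did not. KAP1 and Ring1b were thus mapped in different cell lines. Peak lists hold no expression values, so the cell type was not checked against markers, and the share of feeder chromatin was not measured.

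KAP1 (Trim28) is a corepressor that zinc finger proteins bring to DNA and that recruits histone methylation and heterochromatin proteins. Ring1b (Rnf2) is the ubiquitin ligase of Polycomb repressive complex 1, known for marking silent developmental genes. Ribosomal protein genes, in contrast, are transcribed at a high rate in dividing cells. They have short promoters with a pyrimidine tract at the start, and many carry small nucleolar RNAs (snoRNAs) in their introns. Each protein enters the ribosome as a single copy, apart from the acidic stalk proteins.

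Windows of 150 bases around the transcript start are shown for 6 members, from RefSeq on GRCm38.p6, 5′ to 3′ on the strand of the gene, with 130 bases before the start and 20 from it. Capitals mark the letters CCGGAAG (Ets core) and GGGCGG (Sp1 core), searched on both strands, and CTTTC at the start of Rpl38. Rpl27 and Rps21 were among the KAP1 only members with the highest scores, Rpl37, Rpl26 and Rpl10l had peaks of both proteins, and Rpl38 held all of the marked elements.
Rpl27 (chr11:101442115-101442264, plus strand): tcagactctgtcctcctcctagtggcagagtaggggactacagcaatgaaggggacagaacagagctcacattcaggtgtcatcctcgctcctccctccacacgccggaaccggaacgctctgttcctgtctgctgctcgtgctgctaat
Rps21 (chr2:180257249-180257398, plus strand): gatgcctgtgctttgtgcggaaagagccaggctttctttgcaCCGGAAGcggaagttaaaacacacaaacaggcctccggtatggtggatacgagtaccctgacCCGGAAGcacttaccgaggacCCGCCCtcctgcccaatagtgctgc
Rpl37 (chr15:5116483-5116632, plus strand): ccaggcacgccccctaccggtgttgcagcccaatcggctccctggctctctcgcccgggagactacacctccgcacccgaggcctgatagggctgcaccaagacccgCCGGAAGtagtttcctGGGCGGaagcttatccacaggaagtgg
Rpl26 (chr11:68901436-68901585, plus strand): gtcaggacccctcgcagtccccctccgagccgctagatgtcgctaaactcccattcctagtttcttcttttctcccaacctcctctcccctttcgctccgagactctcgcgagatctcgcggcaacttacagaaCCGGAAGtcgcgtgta
Rpl10l (chr12:66284382-66284531, minus strand): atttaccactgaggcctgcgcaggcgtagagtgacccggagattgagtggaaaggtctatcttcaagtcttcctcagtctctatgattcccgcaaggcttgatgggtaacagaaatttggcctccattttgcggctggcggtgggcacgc
Rpl38 (chr11:114668450-114668599, plus strand): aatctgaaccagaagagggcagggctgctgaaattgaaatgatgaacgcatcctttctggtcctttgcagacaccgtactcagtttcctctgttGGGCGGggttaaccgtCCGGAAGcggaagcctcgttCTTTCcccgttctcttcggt

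KAP1 was listed at the promoter of 63 of the 81 genes (77.8%, 95% exact interval 67.2 to 86.3%), against 58.6% of all protein-coding genes. Ring1b was listed at 9 of the 81 (11.1%, 5.21 to 20.05%), against 28.7% of all genes. All 9 were in the shared class, which holds promoters with both proteins and took 24.8% of all genes. The other 54 were in the KAP1 only class (66.7%, 55.3 to 76.8%), against 34.3% of all genes. The Ring1b only class held 0 of the 81, which by a limit of 3 counts allows a share of up to 3.70% (the exact interval reaches 4.45%), and it held 4.05% of all genes. Intervals cover counting error over genes only.

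A deposited promoter reaches 1 kb upstream and downstream of a transcript start, and overlapping regions of neighbouring genes were merged into 1 row under 1 name. Matching by RefSeq accession therefore found members under other names: 15 of the 63 (23.8%, 13.98 to 36.2%), against 15.1% of all genes with a promoter row. In 8 of these 15 the row carried the name of a small RNA, such as Snord35a for Rpl13a, Snord42a for Rpl23a, Snord43 for Rpl3, Snora7a for Rpl32 and Snord15a for Rps3. The others were Lrsam1 for Rpl12, Sphk2 for Rpl18, Zc3h10 for Rpl41, Med22 for Rpl7a, Trappc4 for Rps25, 1700034F02Rik for Rps27a and Rnf151 for Rps2. By the name in the first column alone, KAP1 stood at 48 of 81 (59.3%, against 49.6% of all genes) and Ring1b at 8 (9.88%, against 25.4%). A snoRNA lay inside 29 of the 81 genes (35.8%, against 1.75% of all genes). KAP1 was listed at 22 of the 29 promoters with a snoRNA in the gene and at 41 of the 52 without.

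Both subunits were marked mainly by KAP1. The large subunit had KAP1 at 38 of 50 promoters (76.0%, 61.8 to 86.9%), with 30 KAP1 only and 8 shared. The small subunit had KAP1 at 25 of 31 (80.6%, 62.5 to 92.5%), with 24 KAP1 only and 1 shared, Rps2. The difference between subunits was not tested, and the intervals of the shared class (7.17 to 29.1% and 0.0816 to 16.7%) overlap.

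Related gene lists were counted in the same way. Mitochondrial ribosomal protein genes had KAP1 at 65 of 78 promoters and Ring1b at 7, and translation initiation factors had KAP1 at 47 of 56 and Ring1b at 9. Elongation and termination factors had KAP1 at 17 of 18 and Ring1b at 6. Of 50 genes of ribosome biogenesis, which include the nucleolar proteins and RNA polymerase I subunits, 43 had KAP1 and 11 Ring1b, with 1 in the Ring1b only class. Of 8 cytosolic ribosomal protein genes whose symbols fall outside the rule, 6 were KAP1 only at the promoter, among them Rpl22l1, Rps3a1, Rack1, Rpl36al and Rpl7l1, and Fau and Rps27rt were in no table. These are counts, and no list was tested.

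**Figure D1:**
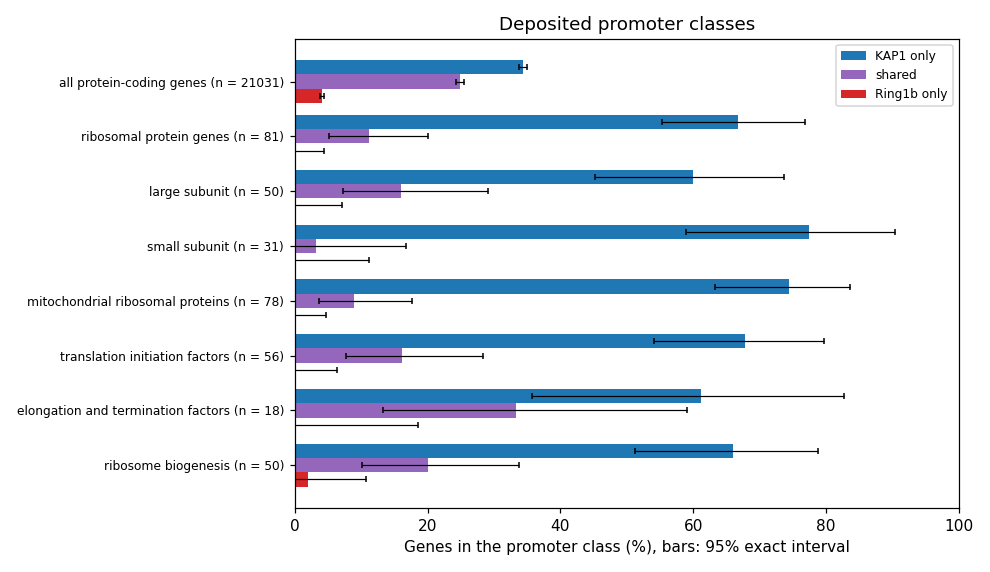
Percent of genes in each deposited promoter class (x axis) for all protein-coding genes, the ribosomal protein genes, their subunits and 4 related lists; whiskers are 95% exact intervals. KAP1 only reached 66.7% of ribosomal protein genes against 34.3% of all genes, and the shared class 11.1% against 24.8%.

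The peak lists give the position more directly. A transcript start could be placed for 79 of the 81 genes, 61 from the reference and 18 from the deposited windows, and not for Rpl17 and Rps14. A KAP1 peak lay within 1 kb of the start at 62 of 79 (78.5%, against 59.9% of all genes) and covered the start at 54 (68.4%, against 53.3%). A Ring1b peak lay within 1 kb at 9 (11.4%, against 28.5%) and covered the start at 5 (6.33%, against 23.3%), namely Rpl10l, Rpl22, Rpl26, Rpl37 and Rpl37a. In the deposited class and in this count by own start the genes fell alike, except Rpl41, whose promoter row was KAP1 only although no KAP1 peak lay within 1 kb of its start.

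Summits, the highest points of the peaks, were mostly upstream of the start. Of the 62 genes with KAP1 at the start, 48 had the summit of the highest-scoring peak upstream (77.4%), against 53.1% of all genes with such a peak. The median summit lay at -88.5 bp from the start, negative being upstream (95% order-statistic interval -184 to -64), against -14 bp over 10110 genes. The summit was within 250 bp of the start at 42 of the 62 (67.7%, against 63.5%). At Rpl27, Rpl31, Rpl10a and Rps4x the summit was within 20 bp of the start, at -3, 5, -11 and -20 bp.

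A few summits stood far off. Rps10, of the small subunit, had its highest-scoring peak at -1564 bp and a lower one over the start. Rpsa, also known as a laminin receptor, had a peak of score 50.6 at 57 bp and its highest-scoring one of 102 at 1495 bp. Rpl13a, which in human cells also takes part in translational silencing, had its highest-scoring peak at -1330 bp and one of 92.6 at -270 bp. Rpl7 had its highest-scoring peak at -1319 bp and Rpl27a at -1106 bp. In the promoter tables, the KAP1 regions of Rpl23a (1538 bp), Rpsa (1495 bp), Rpl41 (1452 bp) and Rpl13a (-1330 bp) were among the 5 farthest of KAP1 only members. Rpl23a also had a listed KAP1 peak of score 69.1 at 338 bp.

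Some KAP1 summits were nearer to the start of a neighbour. Among genes with a start in the reference promoter table, one on the opposite strand started within 1 kb of the member's start at 8 members: Rpl12, Rpl18, Rpl35a, Rpl7a, Rpl9, Rps18, Rps27 and Rps28. At 6 of the 63 genes with a deposited KAP1 region, another start of that table was nearer to its summit. These were Rpl12 (287 bp to Lrsam1, 358 bp to Rpl12), Rpl18 (31 bp to Sphk2, 38 bp to Rpl18), Rpl41 (30 bp to Zc3h10), Rpl9 (67 bp to Lias, 133 bp to Rpl9), Rps18 (41 bp to Vps52, 176 bp to Rps18) and Rps28 (19 bp to Ndufa7, 64 bp to Rps28). Rdh10 beside Rpl7, Nkiras1 beside Rpl15, Trappc4 beside Rps25 and Clhc1 beside Rps27a shared a promoter row with the member but have no start in that table, so both counts are lower bounds. The KAP1 summits of Rpl15, Rps25 and Rps27a lay inside these neighbours. A peak at such a pair of starts cannot be given to 1 of the genes.

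**Figure D2:**
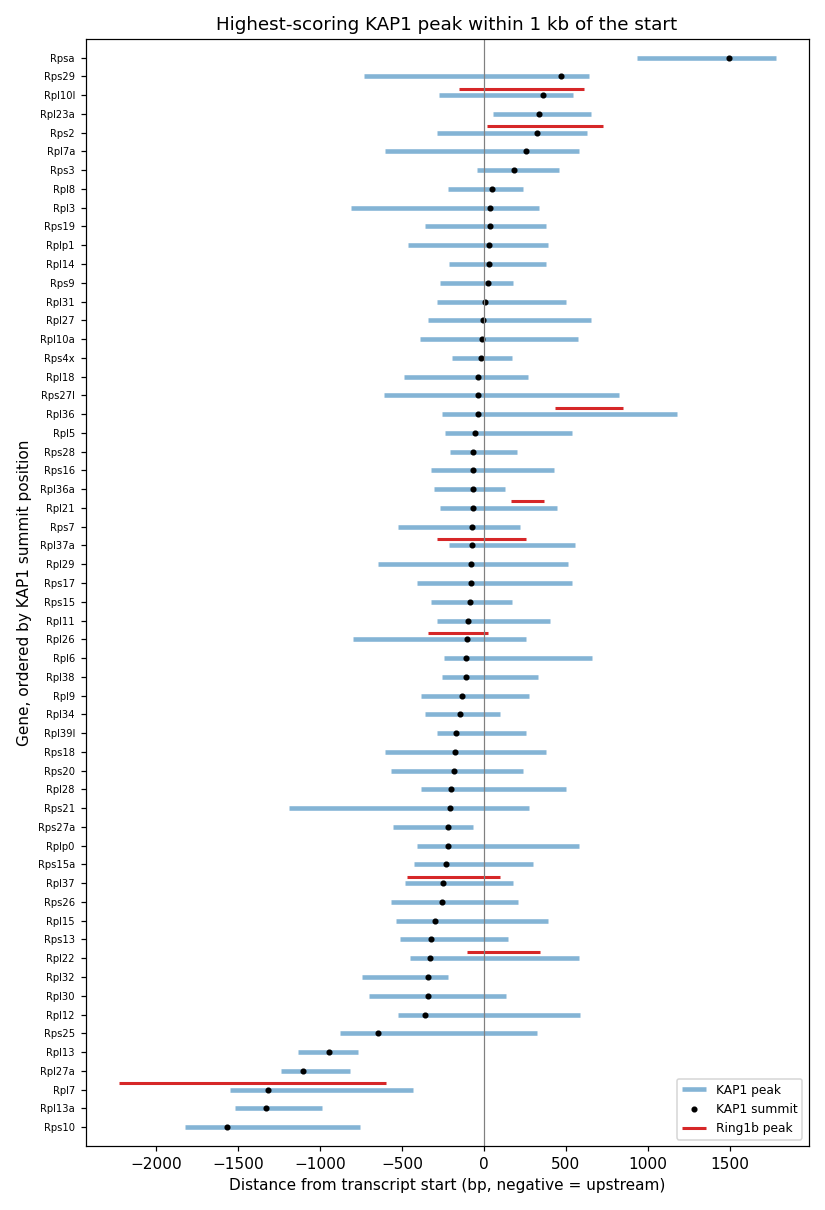
Highest-scoring KAP1 peak within 1 kb of the start at 58 ribosomal protein genes, as distance in bp from the transcript start (x axis), 1 gene per line; bars are peaks, dots are KAP1 summits and red bars are Ring1b peaks at the 9 genes that had one. Of the 58 summits drawn, 44 lie to the left of the start.

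KAP1 peaks also stood at the other end of many genes, a measure chosen after its values were seen. A KAP1 peak within 1 kb of the far end of the gene, and more than 1 kb from every start of it, was found at 35 of 79 members (44.3%, 33.1 to 55.9%), against 14.4% of all genes. Ribosomal protein genes are short, with a median length of 3175 bp against 17729 bp. Between the length quartiles of the members (2409 to 4451 bp) the counts were 18 of 39 members (46.2%) and 248 of 1258 genes in all (19.7%). Mitochondrial ribosomal protein genes had such a peak at 10 of 69 (14.5%), and initiation factors and ribosome biogenesis genes each at 6 of 44 (13.6%). Elongation and termination factors had one at 4 of 12 (33.3%), and cytosolic ribosomal protein genes outside the rule at 2 of 7 (28.6%). Both of these last lists are small. Of the 35 peaks, 7 lay within 1 kb of the reference start of another gene, and of the 2433 such peaks over all genes, 419 did.

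Of the 35 genes with a far-end peak, 30 also had KAP1 at the start. The highest far-end score was 477 at Rps18 (chr17:33950941-33952660, 1720 bp), whose start peak had 158. Rpl23 had 319 at the far end (chr11:97776541-97777629) and no peak within 1 kb of its start, and Rpl4, Rpl41, Rplp2 and Rps23 likewise had a far-end peak without one at the start. The far-end peak of Rpl41 is the one with its summit 30 bp from the start of Zc3h10. Some far-end scores were near the lowest of the list, such as 51.6 at Rpl37 and 53.8 at Rplp0, and their median was 92.7, against 115 over all genes with one. Across the gene and 1 kb on either side, the 81 members had 135 KAP1 peaks, of which 134 were distinct. Rpl22 had the most, 6, and 37 members had 2 or more (45.7%, against 46.9% of all genes).

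**Figure D3:**
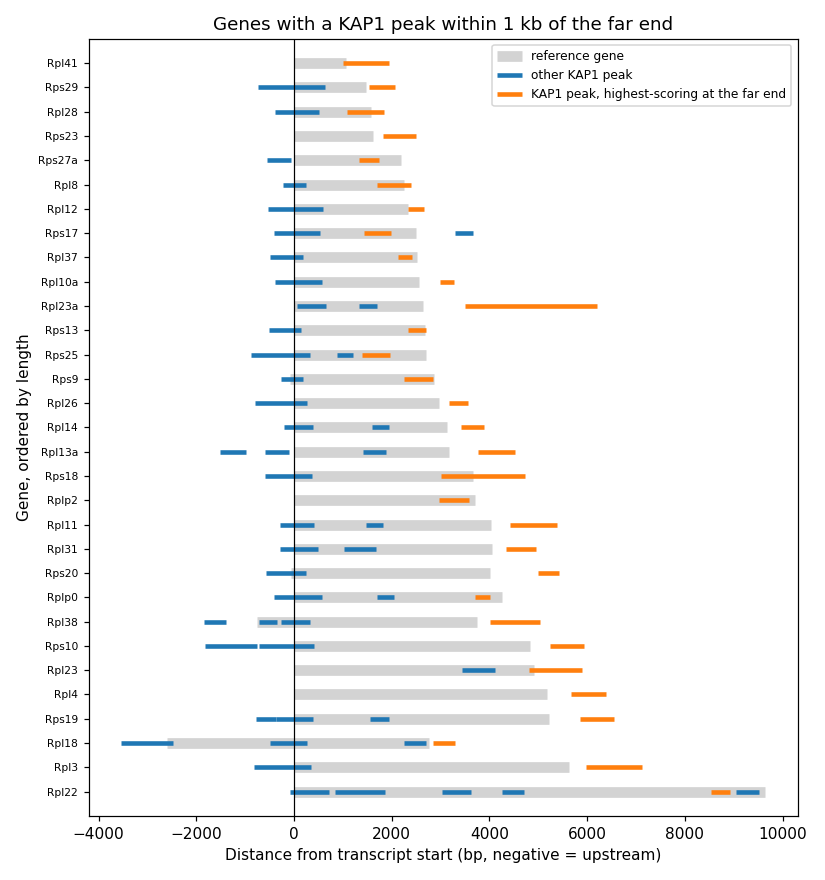
KAP1 peaks on 31 of the ribosomal protein genes with a KAP1 peak within 1 kb of the far end, as distance in bp from the transcript start (x axis); grey bars are the reference genes, orange bars the highest-scoring far-end peaks and blue bars the other KAP1 peaks. In 26 of these 31 a KAP1 peak also lies within 1 kb of the start.

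Scores are 10 times the -log10 p of the peak caller and rank peaks within 1 list. The highest-scoring KAP1 peaks at member starts had a median of 116 (95.3 to 145), against 148 over all genes with a peak at the start and 96.2 over the whole KAP1 list. Of the 62, 39 were above the median of the list and 19 above its upper quartile. These counts are not high for peaks at starts. Over all genes with such a peak the lower quartile of scores, 96.5, was already above the list median, against 89.4 for members. The upper quartile was 223 over all genes and 166 for members. The median width of the member peaks was 776 bp (715 to 886), against 794 bp over all genes. The interval of the members' median score lay below the median over all genes, and that of their median width included it.

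The promoter tables give regions around the same summits that can be much narrower than the listed peaks, such as 480 against 1434 bp at Rpl36, 436 against 964 bp at Rpl10a and 378 against 690 bp at Rpl11. In all, 29 of the 63 KAP1 regions had the borders of a listed peak, and 63 of 63 had its summit. Over all genes these shares were 40.7% and 96.6%. In the tables the median member region was 597 bp wide (521 to 741; range 290 to 1201) and scored 115 (104 to 134; range 51 to 388), against 618 bp and 133 over all genes.

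Among KAP1 only members the highest table scores were 388 at Rpl27, 369 at Rplp0, 241 at Rpl3, 220 at Rps21 and 197 at Rps27l. Rplp0 is the base of the ribosomal stalk that binds translation factors, and Rpl3 reaches the peptidyl transferase centre. In the peak list, Rpl27 (chr11:101441906-101442900, 408) was above 97.8% and Rplp0 (chr5:115559058-115560049, 369) above 96.9% of all KAP1 peaks. Among the 5 lowest table scores were 59 at Rpl8, 61 at Rpl39l, 65 at Rpl31 and 67 at Rpl13, close to the lowest score in the list, 50.0.

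In the promoter tables, Rps21 alone was among both the 5 widest and the 5 highest-scoring KAP1 only regions. The widest were 1201 bp at Rps25, 1183 bp at Rpl7a, 1164 bp at Rpl29, 1104 bp at Rps29 and 943 bp at Rps21. They scored 91, 82, 91, 151 and 220. The order of widths depends on the borders used. In the peak list Rps21 had 1461 bp (score 275) and Rps27l 1434 bp (238), both wider than the peak of Rps25. The narrowest table regions were 290 bp at Rpl23a, 339 bp at Rpl36a, 366 bp at Rps4x, 371 bp at Rpl13 and 378 bp at Rpl11. Rpl11, which with Rpl5 and 5S RNA forms a particle that can bind Mdm2, scored 115, and Rpl5 scored 78 over 777 bp.

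**Figure D4:**
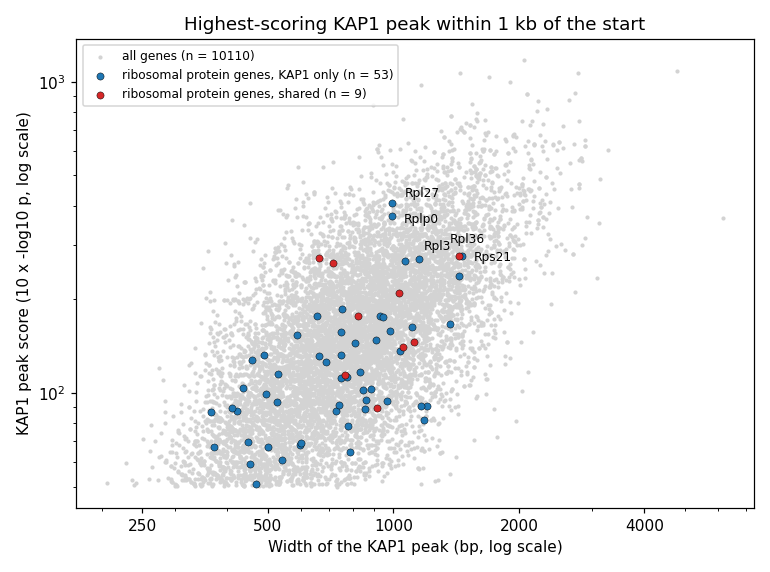
Width in bp (x axis, log scale) against score (10 times -log10 p, y axis, log scale) of the highest-scoring KAP1 peak within 1 kb of the start; grey points are all 10110 genes with such a peak, blue points KAP1 only members and red points shared members. Rpl27 and Rplp0 have the highest scores among members, 408 and 369.

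At the 9 shared promoters the Ring1b scores were below the median of all shared promoters, and 7 of them below the median of the whole Ring1b list. The median KAP1 table score was 146 (114 to 262), against 138 over all shared promoters. The median Ring1b score was 73 (55 to 131), against 210, and the median Ring1b width 548 bp (366 to 763), against 888.5 bp. The KAP1 and Ring1b summits were a median of 92 bp apart (7 to 322), against 233.5 bp. These are values of single libraries and the class itself was set by the peak calls, so no test was made.

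Rpl7 had the highest Ring1b score, 186, over 1633 bp, above 61.7% of the Ring1b list, beside a KAP1 score of 146. Both summits lay upstream, 14 bp apart, and the KAP1 summit was at -1319 bp from the start of Rpl7 and 130 bp outside Rdh10 (chr1:16105882-16132550), a retinol dehydrogenase gene that shared the row. Rpl10l, an intronless copy of Rpl10 known from mouse testis, had 131 for Ring1b over 763 bp and 177 for KAP1, with summits 95 bp apart and both downstream of the start. These were the members whose Ring1b scores were above the median of the Ring1b list.

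The other 7 Ring1b scores were below the list median of 116. Rpl36 had 98 for Ring1b and 145 for KAP1 in the table, where the KAP1 peak of the list scored 275 over 1434 bp, with summits 817 bp apart, the widest separation of the 9. Rpl37, Rpl21 and Rpl22 had the highest KAP1 table scores of the 9, 281, 259 and 262 (272, 262 and 209 in the list), with Ring1b scores of 88, 73 and 65 and summits 45, 312 and 322 bp apart. Rpl22 is a protein needed for T cell development in mice. Rpl37a had 65 for Ring1b and 114 for KAP1 with summits 92 bp apart, Rpl26 had 55 and 137 with summits 4 bp apart, and Rps2 had 52 and 89 with summits 7 bp apart. The Ring1b peak of Rps2 was above 2.83% of its list and that of Rpl26 above 10.0%, so both were near the calling threshold.

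**Figure D5:**
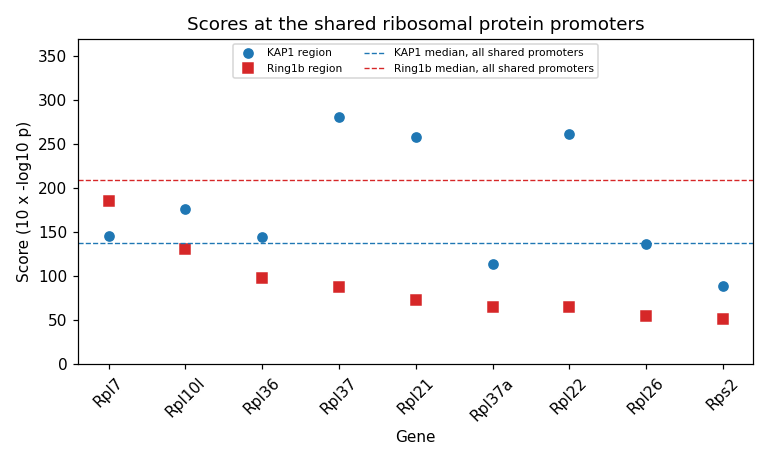
Deposited KAP1 (circles) and Ring1b (squares) scores, 10 times -log10 p (y axis), at the 9 shared ribosomal protein promoters; dashed lines are medians over all shared promoters, 138 for KAP1 and 210 for Ring1b. Every Ring1b score of the 9 lies below the Ring1b line; scores of the 2 lists are not on a common scale.

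A further gene had both proteins outside the promoter windows. At Rpl19 a KAP1 peak of score 330 (chr11:98021544-98023298) and a Ring1b peak of score 59.1 (chr11:98022594-98023039) overlapped the upstream end of the reference gene, with summits at -4087 and -3985 bp from the transcript start used, and the gene was in no table. Within the gene or 1 kb of either end, Ring1b was found at 10 of 81 (12.3%, against 35.6% of all genes) and KAP1 at 71 (87.7%, against 71.3%). These shares were not matched for gene length, and members are shorter than most genes.

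The whole-gene tables put more members beside Ring1b than the promoters did. By accession 56 of the 81 had a whole-gene class (69.1%, against 63.4% of all genes), 40 of them KAP1 only (49.4%, against 30.7%), 16 shared (19.8%, against 30.7%) and 0 Ring1b only (2.06% of all genes). The promoter and whole-gene class differed at 26 members. From KAP1 only to shared went 7, among them Rpl10a, Rpl15, Rpl31, Rpl38, Rpl5 and Rps15. KAP1 only at the promoter and in no whole-gene row were 11, among them Rpl12, Rpl18, Rpl23a, Rpl41, Rpl7a, Rps18, Rps25, Rps27a, Rps28 and Rps4x. Rpl23, Rpl3l, Rplp2 and Rps14 were KAP1 only over the gene alone, Rpl32l and Rpl35 shared over the gene alone, and Rpl7 and Rps2 shared at the promoter alone.

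Whole-gene rows run over neighbours. The extra Ring1b peaks lay outside the members, in neighbours except for the rows of Rpl35 and Rpl38. Of the 12 shared rows under the member's own symbol, 7 had a Ring1b region within 1 kb of the reference gene. For Rpl10a the Ring1b region was 18448 bp away in Tead3 and Tulp1 (score 617), for Rpl15 59413 bp away in Ube2e1 (1383), for Rpl31 106097 bp away in Tbc1d8 (131) and for Rpl5 77372 bp away in Dipk1a (87). Rows under other names placed it 54488 bp from Rpl32l, 3429 bp from Rpl35, 96340 bp from Rpl38 and 370219 bp from Rps15. The row that held Rps15 covered 61 accessions.

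These rows also placed the added 1 kb by coordinate. Of the 50 rows under a member's own symbol, 41 began 1 kb (within 25 bp) below the lowest coordinate of the reference gene. Over all genes whose row ended at the reference border, this held for 1625 of 3024 on the plus strand (53.7%) and 1641 of 1818 on the minus strand (90.3%), where the lower side is downstream. For minus-strand members a whole-gene row can therefore leave out a promoter peak that lies wholly upstream of the gene. The 11 members KAP1 only at the promoter and in no whole-gene row each had a listed KAP1 peak overlapping the reference gene. Some of them, such as Rpl12 and Rpl18, were on the plus strand, and why the 11 had no row was not tested.

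No KAP1 peak lay within 1 kb of the start at 17 of the 79 placed genes: Rpl10, Rpl19, Rpl23, Rpl24, Rpl32l, Rpl35, Rpl35a, Rpl39, Rpl3l, Rpl4, Rpl41, Rplp2, Rps12, Rps23, Rps24, Rps27 and Rps6. Rps6 is the target of S6 kinase, and Rplp2 is a stalk protein whose partner Rplp1 had a KAP1 peak of score 89. At 8 of these genes KAP1 peaks lay elsewhere in the gene or within 1 kb of it. In all, 10 members had none in the gene or 1 kb around it, among them Rpl17, and 12 members were in no table.

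Copies of the same protein differed in class. The X-linked Rpl10 and Rpl39 had no KAP1 peak, while their autosomal copies Rpl10l and Rpl39l, known from testis, had KAP1 with Ring1b (177) and KAP1 only (61). Rps27 had none and Rps27l, a copy induced by p53, had KAP1 at 197. Rpl3 had KAP1 at 241, and Rpl3l, its copy in striated muscle, had none at the start but a peak of 90.6 in the gene. Rps4x, on the X chromosome, had KAP1 at 87. The handling of reads that match more than 1 copy is not stated in the sources.

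The knockout list holds 8928 Ring1b peaks of KAP1 fl/fl cells given 4-hydroxytamoxifen, called against Ring1b fl/fl cells given the same drug, which is a different line. Ring1b in vehicle-treated KAP1 fl/fl cells was not analysed here, so the line and the loss of KAP1 cannot be told apart in it. A peak of it overlapped 5 of the 81 genes (6.17%, against 14.3% of all genes). It lay within 1 kb of the start at 3 of 79 (3.80%, against 2.8%), and at 3 of the 62 with KAP1 there (4.84%, against 3.93%). The start-based shares are close to the background, and the share of genes overlapped is below it (exact interval 2.03 to 13.8%). That last share was not matched for gene length, and members are short (median 3175 bp against 17729 bp). The part of length in it was not tested.

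All 3 genes encode proteins of the small subunit, and in each the peak covered the start and met a KAP1 peak of the vehicle cells. Over all genes, 397 of the 472 with a knockout-list peak within 1 kb of a start also had KAP1 there. Of the whole list of 8928 peaks, 1211 met a KAP1 peak. At Rps28 (chr17:33824428-33824719, 292 bp) the score was 110, above 96.4% of the knockout list, with the summit at -41 bp from the Rps28 start, and Ndufa7, a subunit of respiratory complex I, starts 10 bp away on the other strand. At Rps29 (chr12:69159165-69159575, 411 bp) the score was 56.7 and the summit at -163 bp. At Rps9 (chr7:3703919-3704059, 141 bp) it was 65.6 with the summit at -77 bp. The KAP1 peaks there scored 89.7, 167 and 69.4. In the gene body of Rps24 a peak of score 54.5 met neither KAP1 nor Ring1b of the vehicle cells, and at Rpl4 a peak of 78.8 lay 587 bp beyond the gene on a KAP1 peak of 181. Within 5 kb there were further peaks at Rpl30 (66.2) and Rps15 (65.4). None of the knockout-list peaks named here met a Ring1b peak of the vehicle cells. The share of the whole list that met one is not given here. The 9 shared promoters had no knockout-list peak, against 2.8% of all genes with one within 1 kb of a start. With so low a share, 9 promoters are too few to set the shared class apart.

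Ribosomal protein pseudogenes were picked by their names in the reference, which do not say whether each is a copy of an mRNA inserted elsewhere. Of 305, 26 overlapped a KAP1 peak (8.52%, 5.64 to 12.2%), against 7.15% of 10622 pseudogenes. Ring1b overlapped 9 (2.95%, against 2.50%), and the knockout list 0, which allows up to 0.984% by the limit of 3 counts, against 1.37%. Their median length was 526 bp, against 921 bp over all pseudogenes. Of the 81 genes themselves, with a median length of 3175 bp, 65 overlapped a KAP1 peak (80.2%).

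In the 300-base promoter windows of the reference (250 before and 50 after the start), available for 61 members and 16853 genes, the Ets core CCGGAAG occurred in 24 members (39.3%, 27.1 to 52.7%), against 12.2% of all promoters. A pyrimidine initiator, CTTTC or CTTTT on the strand of the gene within 10 bases of the start, occurred in 13 (21.3%, against 4.14%). The YY1 motif AAGATGGC occurred in 5 (8.20%, against 3.27%), the Sp1 core GGGCGG in 35 (57.4%, against 47.7%) and TATAAA in 7 (11.5%, against 13.2%), each on both strands. Rpl15, Rpl27a, Rpl35, Rpl38, Rpl39l, Rplp2, Rps10 and Rps6 held both the Ets core and the initiator.

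The motifs are set beside KAP1 as counts, with no test. The Ets core was in 18 of 44 windows with KAP1 within 1 kb of the start (40.9%) and in 6 of 17 without (35.3%), and the initiator in 9 of 44 (20.5%) and 4 of 17 (23.5%). The Sp1 core was in 28 of 44 (63.6%) and 7 of 17 (41.2%), the YY1 motif in 3 of 44 (6.82%) and 2 of 17 (11.8%), and TATAAA in 5 of 44 (11.4%) and 2 of 17 (11.8%). In the sequences above, Rps21 holds the Ets core at 2 places and Rpl37 and Rpl26 once each. Rpl27, with the highest KAP1 score of the KAP1 only members, holds none of the searched letters in this window. A match is a description of letters and not a bound site.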

How the data were processed

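ChIP-seq libraries of mouse embryonic stem cells, 5 in number and 1 per group, were analysed from the authors' 3 peak lists and 6 gene tables. The submitters' processing notes name bedtools 2.16.2, MACS 1.4.2, Bowtie2 and CASAVA 1.8.2, with build mm10 (GRCm38). Per the file headers, KAP1 and Ring1b of vehicle cells were each called against the same antibody in tamoxifen cells of the same line. The score in the deposited lists and tables is 10 times -log10 p of MACS, which the authors computed. Library depth is not stated in those sources.

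Genes were matched to deposited rows by RefSeq accession (GRCm38.p6). Overlap meant at least 1 bp. Shares carry exact Clopper-Pearson intervals and medians order-statistic intervals, both at 95%, for counting error over genes only. A limit of 3 counts was used where a count was 0. With 1 library per group nothing was tested. The overlap routine was tested on simulated data. Python 3.11.15, numpy 2.4.6, pandas 2.3.3 and scipy 1.17.1 were used.

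Members and lists were chosen with earlier results of these data known. Members were named where they had Ring1b or a knockout-list peak, or where the promoter and whole-gene class differed. Among KAP1 only members, those with the 5 highest or lowest scores, the 5 widest or narrowest regions or the 5 farthest summits were named. Stalk proteins, Rpsa and duplicated copies were also named. Genes named for far-end peaks, for summits far from or close to the start in the peak list, for neighbouring starts or for motifs were chosen after their values were seen. Alternatives were other scores, distances, overlaps, borders, classes and denominators, and, chosen after seeing the data, matching by the name in the first column alone. Some members that meet these rules are counted but not reported by name here.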

Additional observations from a re-analysis of the deposited data

How the results depend on the processing

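Over 10 results, 69 alternative values were computed, of which 51 stayed inside the interval of the value reported and 18 did not. With the upper 50% of scores alone, KAP1 stood at 49.4% of starts, Ring1b and the shared class at 2.53% each and KAP1 only at 46.8%, and the median score was 137. The shares of all genes at this limit were not computed, so the excess of KAP1 over all genes is not shown to hold there. For KAP1 the limit was 96.2, and the lower quartile of scores at starts was 96.5 over all genes and 89.4 for members. KAP1 reached 89.9% within 5 kb and 93.0% of members listed in any of the 6 tables, where KAP1 only was 78.9%. The 6 tables list only genes with a KAP1 or Ring1b region, so the rise among listed members is set by that choice. By the name in the first column, an alternative chosen after seeing the data, KAP1 stood at 59.3% and KAP1 only at 49.4%. Whole-gene classes gave 49.4% KAP1 only. Peak lists over the gene and 1 kb on either side gave 87.7% in place of the whole-gene class. The median KAP1 width was 748.5 bp with the borders of the peak list, 777 bp with the highest-scoring peak per gene and 744 bp at shared promoters. The median score was 103 in the peak list and 146 at shared promoters, where the median distance to the start was 249 bp. The cause of the other shifts was not tested. No paired analysis was possible because each group has 1 library. Read depth behind the peak calls is unknown, so a missing peak may lie under the calling threshold.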
